A study of Homo sapiens with 16 samples.

Results

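RNVU1-17 and RNVU1-18 are genes on chromosome 1 that are named as variants of the U1 small nuclear RNA. LINC00854 and LINC00910 are long noncoding RNA genes at the U2 small nuclear RNA locus of 17q21. In the reference genome GRCh37, the sequence like U2 that was found there lies within LINC00910. The peaks described here are all those that the authors assigned to 1 of these 4 genes, in lists that name 15580 genes. The members were chosen by the gene name given to a peak, with earlier results of these data known, so their folds and pileups are a description and are not tested. They comprise 99 of 118439 distinct peaks, with 21 in the DNMT3B list of vehicle-treated cells, 10 in the DNMT3B list of PTS-treated cells, 49 in the OCT1 list of vehicle-treated cells and 19 in the OCT1 list of PTS-treated cells. Peaks that passed the threshold fell into 8 regions, of 2116 such regions in the series.

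The study sequenced DNA recovered by chromatin immunoprecipitation (ChIP) with antibodies against DNMT3B or OCT1 from MCF10CA1a cells, an invasive human breast cancer line of the MCF10 series. Cells received pterostilbene (PTS), a stilbenoid polyphenol, at 7 µM for 9 days, or the vehicle ethanol. For each antibody and treatment there were 3 replicates and 1 input library. The authors called peaks on the 3 replicates pooled, so every value below stands for a pool, and no replicate error or test between replicates could be computed. The labels describe each list as enriched in 1 treatment, but its folds hold no value of the other treatment. The pileup is the number of pooled fragments at the peak summit, scaled for PTS-treated cells by the authors to match vehicle-treated cells in depth. The fold is the pileup plus 1 over the background of the list plus 1, with a background of 3.20 for DNMT3B and 3.50 for OCT1, and it holds no local input level. From these backgrounds, the pooled depth was 43200000 to 47700000 reads per list. The threshold is a deposited P-value score under 0.05, which corresponds to folds of 5.56 to 6.11 and above in these lists.

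U1 and U2 are the RNAs of the spliceosome that recognise, by base pairing, the 5′ splice site and the branch point of an intron. Their genes are short and present in many copies, and RNA polymerase II transcribes them from a promoter made of a proximal and a distal sequence element. OCT1 (POU2F1) is a POU domain factor that binds the octamer ATGCAAAT, which is the core of the distal element in many of these promoters, and there it helps to recruit the SNAPc complex. DNMT3B is a DNA methyltransferase that acts on the cytosine of CpG dinucleotides.

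The sequences of both U1 genes are shown first because they differ in how often their words recur in the genome. On GRCh37, RNVU1-18 is at chr1:149224058-149224221 and RNVU1-17 at chr1:149194106-149194269, both on the minus strand. Each gene is 164 bases long, and the capitals mark the bases that pair with 5′ splice sites.
RNVU1-18: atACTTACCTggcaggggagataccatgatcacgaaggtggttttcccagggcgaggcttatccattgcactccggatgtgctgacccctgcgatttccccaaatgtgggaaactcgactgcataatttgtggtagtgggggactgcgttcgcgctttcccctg
RNVU1-17: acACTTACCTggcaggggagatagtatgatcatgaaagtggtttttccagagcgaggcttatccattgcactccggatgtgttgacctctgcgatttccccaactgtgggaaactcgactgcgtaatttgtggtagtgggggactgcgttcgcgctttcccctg
The genes differ at 11 of 164 positions, counted from 1 at the 5′ end, and 1 of these, T2C, lies beside the pairing stretch. RNVU1-18 was identical over its whole length to the U1 genes RNU1-1, RNU1-2, RNU1-3 and RNU1-4 of chromosome 1. All 50-base words of the RNVU1-18 gene occurred elsewhere in the genome, with a median of 9 copies, and none of those of RNVU1-17 did.

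OCT1 and DNMT3B peaks flanked RNVU1-18 on both sides, and no peak of any list covered the gene itself. Downstream of the gene, a peak ended 183 bases from it for DNMT3B in vehicle-treated cells, 169 bases for DNMT3B with PTS, 118 bases for OCT1 in vehicle-treated cells and 139 bases for OCT1 with PTS. Upstream, the nearest peak began at 309, 452, 161 and 284 bases in the same order. The gap therefore held the gene in every list, and the 50-base words in the flanking regions were mostly unique (8.85% and 10.2% of them occurred elsewhere). Whether reads of the gene body were lost in alignment was not tested.

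The region downstream of RNVU1-18 (region 1, chr1:149222151-149223940, 1790 bases) held the strongest RNVU1-18 peak in all 4 lists. Its pileup was 33.0 for DNMT3B in vehicle-treated cells and 34.7 with PTS, and 41.0 for OCT1 in vehicle-treated cells and 43.54 with PTS. The corresponding folds were 8.10, 8.50, 9.33 and 9.90, and all 4 passed the threshold. The OCT1 values were above those of DNMT3B in both treatments, but by less than counting error, as described further on. For each antibody the 2 treatments lay close together. The annotation places no gene in this region. The authors' chromatin states, taken from human mammary epithelial cells (HMEC), give strong enhancer, weak enhancer, weak promoter, and heterochromatin or low signal (labelled Heterochrom/lo). A window of 100 bases on either side of the OCT1 summit of PTS-treated cells, chr1:149223413-149223613 on the plus strand, is shown for its CpG sites, which are in capitals.
RNVU1-18 region 1 summit: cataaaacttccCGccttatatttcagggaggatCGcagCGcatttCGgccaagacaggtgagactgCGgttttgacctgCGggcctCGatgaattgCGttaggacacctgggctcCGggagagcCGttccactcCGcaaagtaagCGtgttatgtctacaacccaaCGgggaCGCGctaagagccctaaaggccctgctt
This window held 15 CpG sites, and the whole region held 4.19 per 100 bases. The median over all regions of the series was 1.46 per 100 bases. The RNVU1-17 region (1.23) and LINC00854 region 1 (0.995) lay below that median. RNVU1-18 regions 2 and 3 had 1.74 and 3.02 per 100 bases, and the values of the remaining regions are given further on.

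The region upstream of RNVU1-18 (region 2, chr1:149224505-149226339) passed the threshold in 2 of the 4 lists. The DNMT3B pileup was 26 in vehicle-treated cells, with a fold of 6.43, and 21.0 with PTS, with a fold of 5.24 that missed the threshold. These summits were at different places, 149225032 in vehicle-treated cells and 149225900 with PTS. The DNMT3B peak with PTS that covered the vehicle summit had a pileup of 18.26. The OCT1 pileup was 23 in vehicle-treated cells, with a fold of 5.33 that missed the threshold, and 32.66 with PTS, with a fold of 7.48. The antibodies thus stood on opposite sides of the threshold in each treatment. The promoter of RNVU1-18 lies between the gene and this region. It carries no octamer in the 300 bases before its start, but it has ATGTAGAT, which differs from the octamer at 2 of 8 positions, beginning 235 bases upstream. The same word began 219 or 220 bases upstream in RNU1-1, RNU1-2, RNU1-3 and RNU1-4, 218 in RNVU1-7 and 230 in RNVU1-6. Of the 14 other annotated U1 genes and variants of at least 90% identity to RNVU1-18, 11 had the word and none had an octamer in that stretch. RNVU1-17 was among the 3 without the word. The 40 bases around it are shown for 5 genes in the direction of transcription, with the word in capitals. On GRCh37 they are chr1:149224433-149224472 for RNVU1-18, chr1:16840977-16841016 for RNU1-1 and chr1:145969628-145969667 for RNVU1-7 on the minus strand, and chr1:17222240-17222279 for RNU1-2 and chr1:145382511-145382550 for RNVU1-6 on the plus strand.
RNVU1-18: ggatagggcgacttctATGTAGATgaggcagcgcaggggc
RNVU1-7: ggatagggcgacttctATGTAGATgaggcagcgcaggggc
RNVU1-6: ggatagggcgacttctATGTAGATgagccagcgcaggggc
RNU1-1: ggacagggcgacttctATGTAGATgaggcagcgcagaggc
RNU1-2: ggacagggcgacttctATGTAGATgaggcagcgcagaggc
Counted from 1 at the left end, RNU1-1 and RNU1-2 differed from RNVU1-18 by T4C and G37A, RNVU1-6 by G28C, and RNVU1-7 by no base. The word lay inside a peak in 1 list, that of OCT1 in vehicle-treated cells, whose pileup of 23 missed the threshold. With PTS the nearest OCT1 peak began 49 bases away. The nearest DNMT3B peak began 74 bases away in vehicle-treated cells and 217 bases with PTS. Searched on both strands, ATGTAGAT occurred in none of the 8 regions and in 1.32% of the 2114 regions of the series with sequence.

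A weaker region farther upstream (region 3, chr1:149232817-149234239) overlapped an exon of the long noncoding RNA gene ENSG00000232721. Its OCT1 pileup was 25 in vehicle-treated cells and 24.74 with PTS, with folds of 5.78 and 5.72. Its DNMT3B pileup was 19.0 in vehicle-treated cells, with a fold of 4.76 that missed the threshold, and the DNMT3B list of PTS-treated cells held no peak there. This was the one region of the 8 with an octamer. The sequence, chr1:149233876-149233963 on the plus strand, is shown with the octamer in capitals, here as its reverse complement.
RNVU1-18 region 3 octamer: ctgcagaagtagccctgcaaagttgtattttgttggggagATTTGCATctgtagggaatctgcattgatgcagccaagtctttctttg
The octamer lay 59 bases from the OCT1 summit of PTS-treated cells and 477 bases from the DNMT3B summit. The 3 OCT1 summits of vehicle-treated cells lay 923 bases (pileup 25), 444 bases (pileup 18) and 350 bases (pileup 16) from it, and only the first of these peaks passed the threshold. Searched as ATGCAAAT on both strands, the octamer occurred in 4.35% of the 2114 regions, and in 4.34% of the 1084 regions within the range of lengths of these 8. Within 100 bases of the highest summit it occurred in none of the 8 and in 0.473% of all regions. In region 3 the highest summit was that of OCT1 in vehicle-treated cells, whose fold of 5.78 was close to the 5.72 with PTS.

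Of the 41 weaker peaks of RNVU1-18, 34 lay upstream of the gene, as far as 15.5 kb from it. Of its 14 DNMT3B peaks in vehicle-treated cells 3 passed the threshold (7.57% of all peaks in the list did), and of 6 with PTS 1 did (24.6%). That 1 peak with PTS overlapped 2 of the 3 peaks of vehicle-treated cells, so these counts depend on how peaks were divided. Of its 21 OCT1 peaks in vehicle-treated cells 2 passed (2.37% of all peaks did), and of 10 with PTS 4 did (9.11%). Nothing is read from these counts. The plot of RNVU1-18 peaks by distance shows the gap over the gene and the tallest bar beside it in each list.

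**Figure D1:**
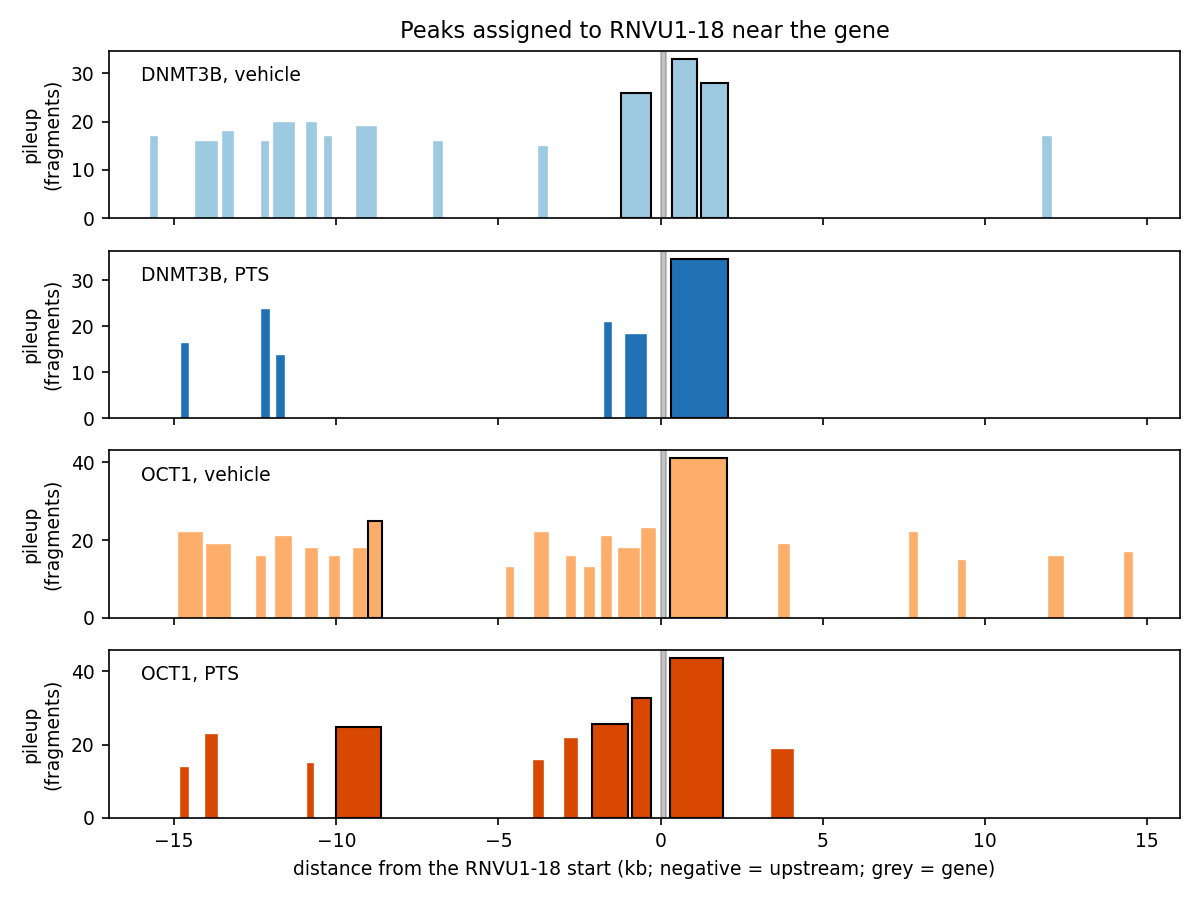
Peaks assigned to RNVU1-18 in each of the 4 lists. The horizontal axis is the distance from the start of the gene in kb, with upstream negative and the gene in grey, and the bar width is the extent of a peak. The vertical axis is the pileup in pooled fragments. A black outline marks a peak past the threshold. The tallest bar of each list stands just downstream of the gene, with pileups of 33.0, 34.7, 41.0 and 43.54, and no bar covers the gene.

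RNVU1-17 had no strong peak at the gene. The nearest peak of any list was an OCT1 peak with PTS at 500 bases, with a pileup of 16.82 and a fold of 3.96 that missed the threshold. The peaks past the threshold lay upstream of it in 1 region, chr1:149204230-149205124, in which the annotation places no gene. The authors annotate this region as insulator and as heterochromatin or low signal. Its DNMT3B pileup was 24.0 in vehicle-treated cells and 26.48 with PTS, with folds of 5.95 and 6.54, both past the threshold. Its OCT1 pileup was 25 in vehicle-treated cells, with a fold of 5.78 past the threshold, and 18.8 with PTS, with a fold of 4.4 that missed it. An insulator state is usually read from binding of CTCF, a zinc finger protein that separates chromatin domains, so the region was searched for the CTCF core motif. A match lay 11 bases from the DNMT3B summit of vehicle-treated cells, 23 bases from that of PTS-treated cells, and 46 bases from the higher of the OCT1 summits with PTS. In vehicle-treated cells OCT1 had 2 peaks past the threshold in this region, with summits 25 bases (pileup 24, fold 5.56) and 507 bases (pileup 25, fold 5.78) from the match. The match is in capitals in chr1:149204404-149204495 on the plus strand.
RNVU1-17 CTCF core: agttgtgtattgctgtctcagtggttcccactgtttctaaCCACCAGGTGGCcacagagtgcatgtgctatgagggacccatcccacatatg
The core motif occurred in none of the other 7 regions, in 0.757% of all regions and in 0.277% of those within the same range of lengths. The remaining OCT1 peaks assigned to RNVU1-17 were weak, with 19 below the threshold in vehicle-treated cells at folds of 2.89 to 4.89, and they reached 117 kb from the gene. In the DNMT3B lists the gene had 2 peaks in vehicle-treated cells and 1 with PTS, all in or beside the insulator region. The DNMT3B lists are shorter, with 15855 peaks in vehicle-treated cells and 4326 with PTS, beside 82187 and 16071 for OCT1. The numbers of peaks of the 2 antibodies at this gene are therefore not compared.

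At 17q21 the strongest peaks of all 4 genes were found, in both antibodies. LINC00854 is a noncoding gene on the minus strand, which the authors' annotation places at chr17:41373437-41383336. Region 2 of LINC00854 (chr17:41381457-41382570) overlapped its exons and lay 1215 to 1482 bases inside its start by the summits. Its DNMT3B pileup was 79.0 in vehicle-treated cells and 84.0 with PTS, with folds of 19.05 and 20.25. Its OCT1 pileup was 129 in vehicle-treated cells and 102.9 with PTS, with folds of 28.89 and 23.10. The OCT1 fold of vehicle-treated cells ranked 30 of 82187 peaks in its list, and that of PTS-treated cells 63 of 16071.

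Region 3 of LINC00854 (chr17:41399580-41401308) was as strong, and the annotation places no gene in it. It began 16.2 kb upstream of LINC00854. Its DNMT3B pileup was 79.0 in vehicle-treated cells and 87.66 with PTS, with folds of 19.05 and 21.12. Its OCT1 pileup was 119 in vehicle-treated cells and 122.7 with PTS, with folds of 26.67 and 27.49. DNMT3B was therefore at the same pileup in both LINC00854 regions of vehicle-treated cells, and OCT1 was above DNMT3B in each. Both regions carry the state for repetitive or copy-number-variable DNA in HMEC, beside that for heterochromatin or low signal. Region 2 also carries weak enhancer and region 3 weak transcription. The input libraries were not analysed here, so the number of copies of this DNA and the enrichment of the antibodies cannot be told apart. The windows of 100 bases on either side of the highest summits, chr17:41382021-41382221 and chr17:41400780-41400980 on the plus strand, are shown with CpG sites in capitals.
LINC00854 region 2 summit: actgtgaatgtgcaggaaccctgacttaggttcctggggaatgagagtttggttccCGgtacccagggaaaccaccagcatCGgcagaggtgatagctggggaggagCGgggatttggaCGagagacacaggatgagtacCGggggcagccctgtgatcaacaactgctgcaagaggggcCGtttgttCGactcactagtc
LINC00854 region 3 summit: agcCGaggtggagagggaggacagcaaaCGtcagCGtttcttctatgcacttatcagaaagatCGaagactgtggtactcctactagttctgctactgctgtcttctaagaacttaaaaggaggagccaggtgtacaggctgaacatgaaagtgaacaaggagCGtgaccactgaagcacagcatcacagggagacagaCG
The windows held 7 and 6 CpG sites, and the whole regions 3.23 and 4.4 per 100 bases. Neither region had an octamer or a near-identical copy on GRCh37. A weaker LINC00854 region (region 1, chr17:41379506-41379907), in an intron, passed the threshold in 1 list. There the OCT1 pileup of vehicle-treated cells was 26, with a fold of 6.0, the DNMT3B pileup of vehicle-treated cells was 15.0, with a fold of 3.81, and neither list of PTS-treated cells held a peak.

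The LINC00910 peak lay at the start of its gene. LINC00910 is transcribed from the minus strand, and its region, chr17:41465923-41466516, covered the gene start used by the authors and exons of LINC00910 and of the antisense gene ENSG00000288909. It had 1 peak in each list, and the 4 summits fell within 17 bases of each other, 63 to 80 bases inside the gene. The DNMT3B pileup was 52.0 in vehicle-treated cells and 49.31 with PTS, with folds of 12.62 and 11.98. The OCT1 pileup was 64.0 in vehicle-treated cells and 54.43 with PTS, with folds of 14.45 and 12.32. For each antibody the value with PTS was below that of vehicle, by less than the counting error given further on. The authors' states are strong enhancer and repetitive or copy-number-variable DNA. Of the 4 genes, 1 matched in the RefSeq promoter table for GRCh38.p14, which was LINC00910, and its 300 bases were identical to chr17:41466217-41466516 of GRCh37 on the minus strand. They are shown because the OCT1 peak of vehicle-treated cells covers all of them, with CpG sites in capitals.
LINC00910 promoter: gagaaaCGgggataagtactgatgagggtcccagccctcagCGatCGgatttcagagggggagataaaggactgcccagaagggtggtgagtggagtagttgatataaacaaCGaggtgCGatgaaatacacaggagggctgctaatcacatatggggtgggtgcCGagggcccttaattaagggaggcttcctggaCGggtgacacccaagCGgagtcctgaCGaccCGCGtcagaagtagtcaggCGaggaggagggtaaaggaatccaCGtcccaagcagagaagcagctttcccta
The promoter had 13 CpG sites and no octamer, and 1.77% of 35116 promoters in the table had one. The whole LINC00910 region had 4.88 CpG sites per 100 bases, and none of its 50-base words occurred elsewhere.

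No annotated U2 gene overlapped a peak. The nearest U2 sequence on GRCh37 was an unannotated stretch within LINC00910, chr17:41464595-41464785 on the minus strand, with 90.05% identity over 191 bases to the U2 gene RNU2-2P of chromosome 11. It is shown with RNU2-2P, chr11:62609091-62609281 on the minus strand, and the capitals mark the word that pairs with the branch point.
U2-like sequence: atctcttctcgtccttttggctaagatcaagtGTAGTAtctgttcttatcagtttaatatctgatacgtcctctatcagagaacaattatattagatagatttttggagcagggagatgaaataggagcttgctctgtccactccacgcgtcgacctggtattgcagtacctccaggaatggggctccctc
RNU2-2P: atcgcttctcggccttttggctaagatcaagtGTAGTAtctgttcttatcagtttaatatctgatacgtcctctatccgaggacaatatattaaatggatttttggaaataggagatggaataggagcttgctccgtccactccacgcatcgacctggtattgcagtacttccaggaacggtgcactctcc
The branch point word is the same in both, and 3 of their first 80 bases differ. The U2-like stretch ended 1138 bases from the LINC00910 region, and was covered by no peak. In the 300 bases before its start it had no octamer, and it had the word ATGTAGAT 46 bases upstream. Between the last LINC00854 region and the LINC00910 region, 64.6 kb of GRCh37 held no peak of any list. Tandem copies of the U2 gene that the reference does not show could not be examined.

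**Figure D2:**
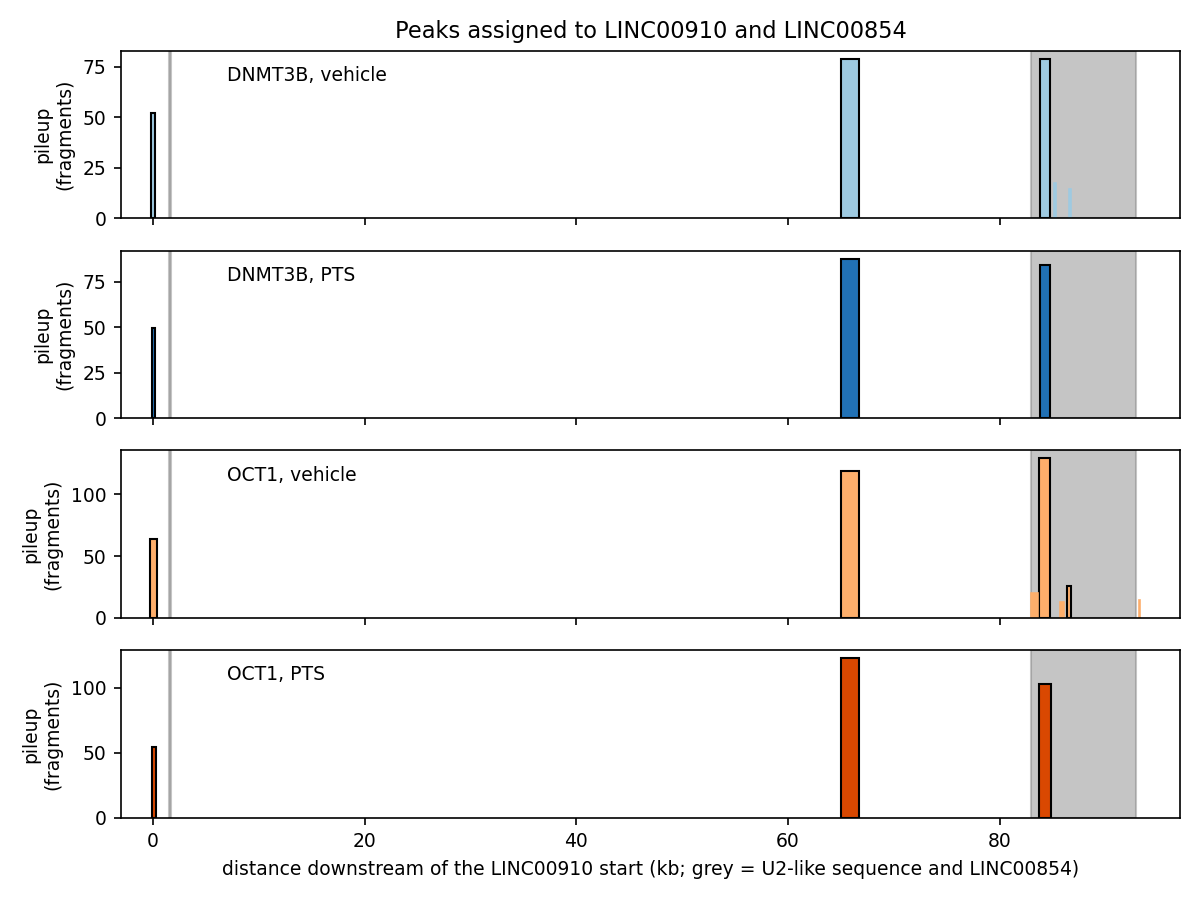
Peaks assigned to LINC00910 and LINC00854 in each of the 4 lists, with the distance downstream of the LINC00910 start in kb on the horizontal axis and the pileup in pooled fragments on the vertical axis. Grey marks the U2-like sequence (narrow) and LINC00854 (wide), and a black outline a peak past the threshold. The 3 tall bars stand at the same places in each list, and no bar stands in the 64.6 kb between LINC00910 and the next region.

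Across the 4 genes, 27 of 99 peaks passed the threshold. They were 7 of 21 in the DNMT3B list of vehicle-treated cells (33.3%, beside 7.57% of all peaks in the list), 5 of 10 in that of PTS-treated cells (50.0%, beside 24.6%), 8 of 49 in the OCT1 list of vehicle-treated cells (16.3%, beside 2.37%) and 7 of 19 in that of PTS-treated cells (36.8%, beside 9.11%). Since strong peaks were known when the genes were chosen, nothing is read from these shares. The weaker 72 had folds of 2.89 to 5.89, and 58 of them carried only the state of heterochromatin or low signal. The share of this state over all weak peaks of the lists was not computed, so nothing is read from this count. The members nearest to the threshold had scores of 0.0496 on its inner side, with folds of 5.56 (RNVU1-17, OCT1 in vehicle-treated cells) and 5.72 (RNVU1-18, OCT1 with PTS), and a fold of 5.89 and a score of 0.0501 on its outer side (RNVU1-18, DNMT3B with PTS). The lists start at pileups of 11.0 for vehicle and 12.8 or 12.9 for PTS, so their numbers of weak peaks are not on 1 scale. Of the member peaks of PTS-treated cells, 8 of 10 for DNMT3B shared a base with a peak of vehicle-treated cells (63.3% of all peaks did), and 16 of 19 for OCT1 did (56.6%). Of the DNMT3B member peaks, 17 of 21 shared a base with an OCT1 peak in vehicle-treated cells (49.0% of all peaks did), and 8 of 10 in PTS-treated cells (62.1%).

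**Figure D3:**
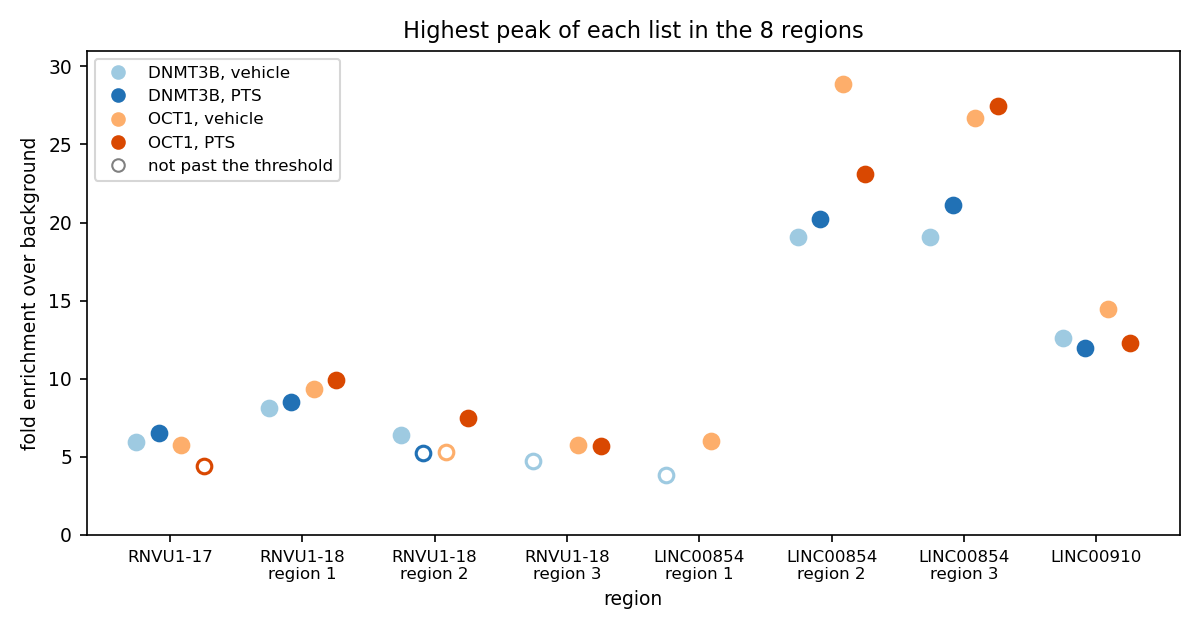
Fold enrichment over the background of the list (vertical axis) for the highest peak of each list in the 8 regions (horizontal axis). Filled points passed the threshold and open points did not, and a missing point means no peak in that list. LINC00854 regions 2 and 3 reach folds of 19.05 to 28.89, LINC00910 11.98 to 14.45, and the RNVU1 regions stay at 9.90 or below.

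Both antibodies and both treatments had a peak in 6 of the 8 regions (1147 of 2116 regions of the series, 54.2%), and all 4 peaks passed the threshold in 4 of them. The highest summits of the 2 antibodies lay 14 bases apart at LINC00910 in vehicle-treated cells and 4 bases with PTS. In LINC00854 region 2 they lay 157 bases apart in vehicle-treated cells and 9 with PTS, and in region 3, 174 and 19 bases. In LINC00854 region 1 they lay 6 bases apart in vehicle-treated cells. In the U1 regions they lay 496 bases apart in vehicle-treated cells and 23 with PTS at RNVU1-17, 91 and 122 in RNVU1-18 region 1, 393 and 1221 in region 2, and 446 in vehicle-treated cells in region 3. The median distance over all regions with both was 50 bases in vehicle-treated cells and 40.5 with PTS. Counting matches that cover at least 80% of a region with an identity of 90% or more, a copy was found for 3 of the 8 regions and for 39.4% of all regions. These were the RNVU1-17 region with 2 copies, RNVU1-18 region 2 with 6 and RNVU1-18 region 3 with 4. A copy of RNVU1-18 region 2 lay beside RNU1-1, with 90.8% identity, and there the pileup was 18.3 for DNMT3B with PTS, 23 for OCT1 in vehicle-treated cells and 25.7 for OCT1 with PTS. No list held a peak at the other copies of that region, and whether reads could be placed there was not tested.

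No region with a peak in both treatments differed between PTS and vehicle by more than counting error. Regions with a peak in 1 treatment only have no ratio and were not compared. These were LINC00854 region 1 for both antibodies (OCT1 pileup of 26 in vehicle-treated cells) and RNVU1-18 region 3 for DNMT3B (pileup of 19 in vehicle-treated cells). Requiring both peaks leaves out regions whose peak was lost or gained, so none of those could be called different. The shares over the series below carry the same limit. The exact binomial 95% interval of the pileup ratio takes pileups as counts and covers counting error only, and it included 1 for DNMT3B in all 6 regions with both values and for OCT1 in all 7. Over the series it lay above 1 in 0.0777% and below 1 in 0.233% of 1287 regions for DNMT3B, and above 1 in 0.555% and below 1 in 0.740% of 1621 regions for OCT1. The DNMT3B ratio was 1.06 (0.779 to 1.45) in LINC00854 region 2, 1.11 (0.815 to 1.51) in region 3, 0.948 (0.636 to 1.42) at LINC00910 and 1.05 (0.642 to 1.73) in RNVU1-18 region 1. The OCT1 ratio was 0.798 (0.610 to 1.04) in LINC00854 region 2, 1.03 (0.795 to 1.34) in region 3, 0.850 (0.582 to 1.24) at LINC00910 and 1.06 (0.678 to 1.67) in RNVU1-18 region 1. The most distant values were those of RNVU1-18 region 2, at 0.808 (0.440 to 1.47) for DNMT3B and 1.42 (0.809 to 2.53) for OCT1. At the RNVU1-17 region the ratio was 1.10 (0.620 to 1.98) for DNMT3B and 0.752 (0.392 to 1.42) for OCT1. Each ratio sets the highest peak of a region in 1 list against that in the other, and their summits can differ in place. They did so for DNMT3B in RNVU1-18 region 2 (149225032 in vehicle-treated cells, 149225900 with PTS). The same held for OCT1 at RNVU1-17 (149204957 in vehicle-treated cells, 149204404 with PTS). In RNVU1-18 region 3 the OCT1 summits were at 149232997 in vehicle-treated cells and 149233861 with PTS, with a ratio of 0.990 (0.545 to 1.80). In LINC00854 region 3 they were at 41400354 and 41400880 for OCT1 and at 41400528 and 41400861 for DNMT3B, vehicle first. Smaller shifts occurred in other regions, so the ratios do not all compare the same site. The median over the member regions was 1.06 for DNMT3B, beside 0.956 over all regions, and 0.990 for OCT1, beside 0.962. The intervals are wide, and differences of the size of their bounds were not detectable at this depth.

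OCT1 exceeded DNMT3B most clearly at LINC00854 in vehicle-treated cells. The ratio of the OCT1 fold to the DNMT3B fold was 1.52 in LINC00854 region 2 and 1.40 in region 3. The pileup ratios there were 1.63 (1.22 to 2.19) and 1.51 (1.12 to 2.03), and both intervals lay above 1.09, the ratio of the backgrounds of the lists. Such an interval lay above the background ratio in 1.87% and below it in 3.42% of 1607 regions. With PTS the pileup ratios were 1.23 (0.916 to 1.64) and 1.40 (1.06 to 1.85), and both intervals included 1.09. Over the series with PTS, 1.33% of 1202 regions lay above and 1.41% below. The change of this ratio between treatments was not tested, since each list is 1 pool. The intervals of the other regions included the background ratio in both treatments, with fold ratios of 0.829 to 1.57 in vehicle-treated cells and 0.672 to 1.43 with PTS. The median fold ratio was 1.18 in vehicle-treated cells and 1.15 with PTS, beside 1.10 and 1.05 over all regions. The antibodies may differ in efficiency, so these ratios compare regions and not amounts of protein.

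**Figure D4:**
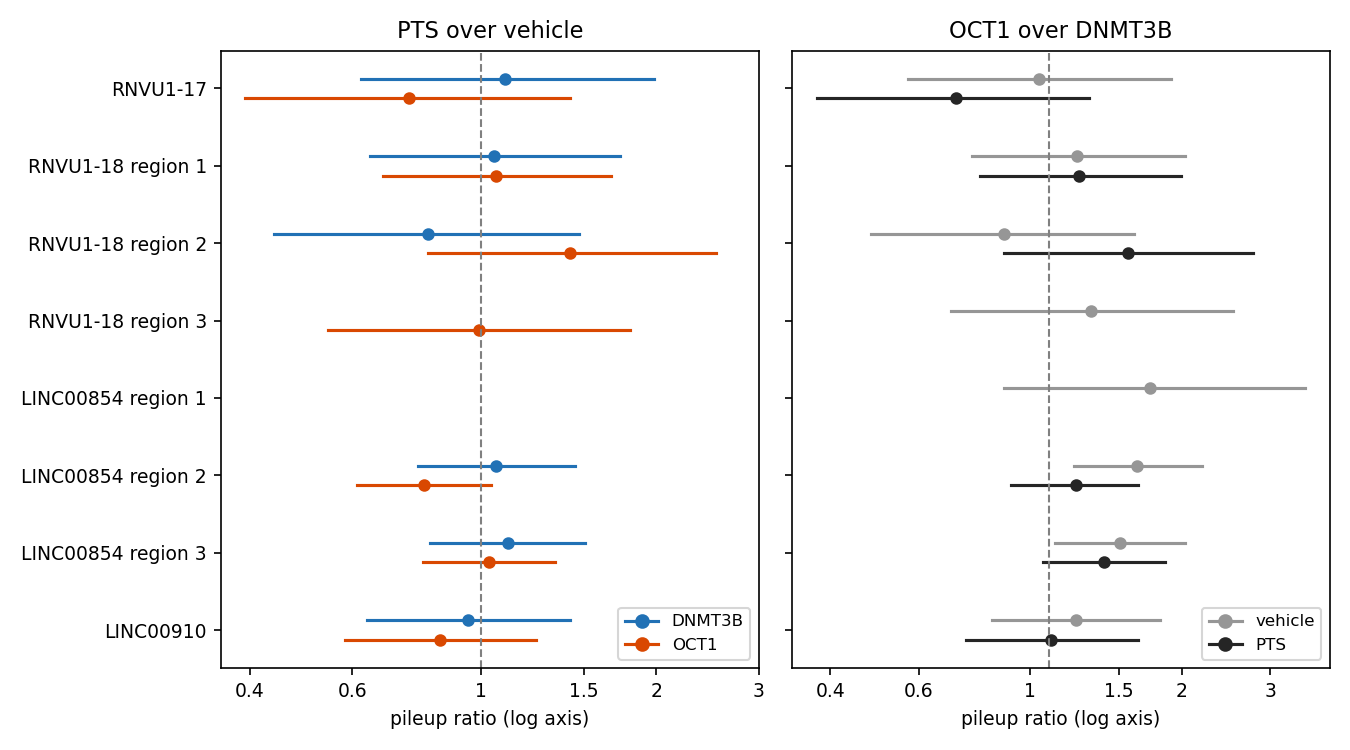
Pileup ratios on a logarithmic horizontal axis for the 8 regions (vertical axis), PTS over vehicle on the left and OCT1 over DNMT3B on the right. Points are ratios, bars exact binomial 95% intervals, and the dashed lines mark 1 on the left and the background ratio of 1.09 on the right. A region without both peaks of a comparison has no point. All intervals on the left include 1, and on the right those of LINC00854 regions 2 and 3 in vehicle-treated cells lie above 1.09.

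Beyond the 4 genes, 4 other genes of snRNA biology had a peak past the threshold in at least 1 list. The counts per list are small, and nothing is read from them. Lists of 119 genes were searched, and 56 had an assigned peak in any list. Without the 4 members, a peak past the threshold was assigned to 1 gene of 18 listed for DNMT3B in vehicle-treated cells, 0 of 8 for DNMT3B with PTS, 4 of 51 for OCT1 in vehicle-treated cells and 1 of 14 for OCT1 with PTS. Over all genes of these lists the shares were 8.17%, 25.4%, 3.12% and 8.18%. RNU1-1, a U1 gene, had folds of up to 6.0 for OCT1 in vehicle-treated cells and 5.94 with PTS, at 3.91 kb and 1.65 kb from the gene. RNU1-2, another U1 gene, had folds of up to 5.95 for DNMT3B and 6.0 for OCT1 in vehicle-treated cells, at 2.82 kb and 11.7 kb. INTS3, a subunit of the Integrator complex that processes the 3′ ends of small nuclear RNAs, had an OCT1 fold of 6.0 in vehicle-treated cells at 15.7 kb. SNAPC3, a subunit of SNAPc, had an OCT1 fold of 5.56 in vehicle-treated cells within the gene. The other genes named by the rule missed the threshold, the elongation factor ELL with a highest fold of 5.72 (DNMT3B, vehicle) and the U2 auxiliary factor U2AF2 with 5.50 (OCT1, PTS). Of the genes for other polymerase II small nuclear RNAs, 3 of 11 had an assigned OCT1 peak in vehicle-treated cells, and none passed the threshold. Of the polymerase III genes with promoters of this type, 6 of 13 did, again with none past it. Of the genes for snRNA transcription and processing 23 of 33 did, with 2 past it (INTS3 and SNAPC3), and of the U1 and U2 snRNP protein genes 12 of 24 did, with none past it. An OCT1 peak in vehicle-treated cells was assigned to 97.1% of the 15580 genes named in any list, and genes that no list names are not in that share. Within 1 kb of the 14 U1 genes and variants other than RNVU1-18, no peak passed the threshold, and the highest fold was 4.84.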

How the data were processed

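Peaks came from 4 deposited lists, 1 per antibody and treatment, grouped by the sample labels. After trimming with cutadapt and alignment with BWA to GRCh37/hg19, the authors dropped duplicate reads, called peaks with MACS2 on pooled replicates, assigned genes with ChIPseeker and added ChromHMM states of HMEC. Versions were not given in the sources used here. The deposited pileup is a signal in fragments, and the deposited fold enrichment is a ratio to 1 background value per list. The study's methods name pooled inputs as background and a separate step for differential peaks, but the deposited folds show neither a local background nor a value of the other treatment. The authors' −log10 p-values are Poisson tails of the pileup, and the P-value and Q-value scores they deposited equal 10 to the power of −x/10 of the −log10 columns. The threshold of 0.05 is on this score.

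The members and lists were chosen with earlier results of these data known. Peaks on several lines were counted once, and peaks past the threshold at most 200 bp apart were joined into regions. Ratios used the highest peak of each list, with exact binomial 95% intervals on fragments before scaling. Sequences and genes came from GRCh37 with GENCODE 44, copies from minimap2 2.31-r1302, U1 and U2 matches from blastn 2.17.0+, and the promoter from RefSeq. The CTCF core was searched on both strands under its name. Named genes were the members and, of the lists, the 10 genes with the highest fold. Computations used python 3.11.15, numpy 2.4.6, scipy 1.17.1, pysam 0.24.0 and numba 0.67.0, with matplotlib 3.10.9 for plots. The calculations were tested on simulated data. Alternatives concerned the threshold, distance to the gene, joining, copies, motif windows and gene assignment. Input libraries were not analysed here.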

Additional observations from a re-analysis of the deposited data

How the results depend on the processing

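No paired analysis was possible because the deposited lists pool the 3 replicates, and no replicate could be left out. Of 57 alternatives, 39 kept the value within its limits, 18 moved it and none reversed it. With a threshold of 0.01, 4 member peaks passed for DNMT3B in vehicle-treated cells and 4 for OCT1. With no threshold, the counts were 21 and 10 for DNMT3B in vehicle- and PTS-treated cells and 49 and 19 for OCT1. Within 10 kb of the gene, 3 DNMT3B peaks with PTS passed. Summing the peaks of a region gave a median PTS to vehicle ratio of 0.798 for OCT1 and a median OCT1 to DNMT3B ratio of 1.55 in vehicle-treated cells, and leaving out regions with copies gave 1.40 for the latter. No region (0) had an octamer within 100 bp of its highest summit, and 0 had a copy at 95% identity. The octamer count depends on RNVU1-18 region 3, whose OCT1 folds were close, at 5.78 in vehicle-treated cells (923 bases away) and 5.72 with PTS (59 bases). Genes of the lists with a peak past the threshold numbered 3 for DNMT3B and 4 for OCT1 in vehicle-treated cells when the peak had to lie within 1 kb of the gene. With no threshold they numbered 22 and 12 for DNMT3B and 55 and 18 for OCT1, vehicle first. The causes of these shifts were not tested beyond the settings themselves. Pileups of 15 to 129 fragments limit the ratios, as their intervals show, and the unknown input level and copy number limit every fold.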
